A study of Capra hircus with 9 samples.

Results

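Long non-coding RNAs (lncRNAs) that peaked in IVF-8c embryos were selected from goat embryo transcriptomes, and 288 of the 36240 lncRNAs listed met the rule. The rule asked for a value above 0 in each of the 3 embryo libraries and at least 1 FPKM in IVF-8c (FPKM is the number of fragments per kilobase of transcript, scaled to the mapped fragments of the library). It further asked that the log2 ratio of FPKM + 0.1 be above 2, which is more than 4-fold, when IVF-8c was set against IVF-2c and when it was set against SCNT-8c. All 3 values of each lncRNA were thus used to choose it, so its peak in IVF-8c is the selection and not a result. Since a condition was a single library, replicate error is unknown, no test was made and no p-value is given.

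IVF-2c and IVF-8c are goat embryos made by in vitro fertilization and collected at the 2-cell and the 8-cell stage. SCNT-8c are 8-cell embryos made by somatic cell nuclear transfer, in which the nucleus of a goat fetal fibroblast (GFF) was placed into an enucleated oocyte that was then activated with ionomycin and a kinase inhibitor. The oocytes of all 3 conditions were matured in vitro, each library was made from a pool of embryos, and the donor fibroblasts came from 1 female fetus of a Saanen dairy goat, so that the SCNT-8c embryos shared a donor genome that the IVF embryos did not have. In such pools, fewer embryos that contain an RNA and less RNA per embryo cannot be told apart.

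Early embryos first live on RNA and protein stored in the oocyte, and embryonic genome activation (EGA) is the time at which the embryo's own genome takes over transcription. In ruminants the main wave of EGA falls around the 8-cell stage. After nuclear transfer, a somatic nucleus has to be reprogrammed to run the same activation, and incomplete activation at this stage is a known trait of cloned embryos. Long non-coding RNAs are transcripts without an evident protein product, and many are present for a short window of development only. The 288 lncRNAs carry running numbers of the transcript assembly (TCONS) and no gene names, so no function can be given for them from the files.

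The summed lncRNA values were similar between libraries, with 117374 FPKM in IVF-8c versus 126105 in IVF-2c and 109662 in SCNT-8c. Of all lncRNAs, 12085 were above 0 in every library, and the 288 made up 2.38% of these. The numbers of sequenced fragments are not known for these libraries, so no counting interval or detection limit is given. Of 20 genes of an oocyte list 11 were matched. BTG4 among them, a maternal mRNA decay factor, was at 7830 FPKM in IVF-8c, compared with 10551 in IVF-2c and with 9371 in SCNT-8c. On the log2 scale its fall from IVF-2c to IVF-8c was the smallest of the matched genes. ZAR1 was at 27.2 FPKM in IVF-8c versus 202 in IVF-2c and 30.7 in SCNT-8c, and MOS was at 397 versus 1724 and 690. These genes were higher in SCNT-8c than in IVF-8c, but NPM2, ZAR1L, ZP2 and the main transcript of ZP4 were lower. ZP2, for example, was at 252 FPKM in IVF-8c and 200 in SCNT-8c. Genes of other cells that could be carried along were also matched only in part, 7 of 15 for cumulus cells, 10 of 16 for fibroblasts and 4 of 10 for sperm, so they are given by value and not as lists. The cumulus genes did not move together. STAR, a cholesterol carrier of steroid synthesis, was at 11.4 FPKM in IVF-8c, compared with 47.2 in IVF-2c and with 12.4 in SCNT-8c. TNFAIP6, a protein of the expanding cumulus matrix, was lowest in IVF-2c with 2.22 FPKM, and it was at 26.6 in IVF-8c and 51.2 in SCNT-8c. HAS2, a hyaluronan synthase, lay between 16.7 and 21.3 FPKM, and FSHR, the FSH receptor of granulosa cells, was listed at 0 in IVF-2c and SCNT-8c and at 0.0326 FPKM in IVF-8c. The fibroblast genes also differed in order. The main transcript of DCN, a proteoglycan, was at 54.1 FPKM in both 8-cell libraries and at 114 in IVF-2c, while LUM, a related proteoglycan, was at 9.53 FPKM in IVF-8c versus 3.56 in IVF-2c and 15.7 in SCNT-8c. COL1A2, a collagen chain, was at 2.51 FPKM in IVF-8c, compared with 2.12 in IVF-2c and with 3.46 in SCNT-8c. S100A4, THY1 and PDGFRA were instead highest in IVF-8c, but within 4-fold of SCNT-8c. S100A4 reached 2.61 FPKM in fertilized and 1.98 in cloned 8-cell embryos, from 0.112 at the 2-cell stage. THY1 was listed at 0 at the 2-cell stage, and its 8-cell values were 1.52 (IVF) and 1.05 FPKM (SCNT). PDGFRA was also at 0 there, with 1.56 and 1.37 FPKM for its higher transcript. FAP and FN1 were lowest in IVF-8c, COL3A1 was highest in SCNT-8c, and POSTN varied by transcript. Of the sperm genes TNP1, a chromatin protein of spermatids, had the highest value in IVF-8c, with 3.72 FPKM there and 1.02 in SCNT-8c. Its value at the 2-cell stage was 0. The order of the 8-cell libraries was reversed for AKAP4 and CABYR. Their main transcripts reached 2.03 and 0.740 FPKM in SCNT-8c, against 0.392 and 0.122 in IVF-8c. SPEM1 was low, with 0.101 FPKM in IVF-8c and 0.0870 in SCNT-8c. The part of such cells in the lncRNA values was not tested.

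The question behind the selection is which lncRNAs are high at the time of EGA in fertilized embryos and low in cloned embryos of the same stage. Among the 5748 lncRNAs above 0 in every library and at 1 FPKM or more in IVF-8c, the 288 were 5.01%. The limit over IVF-2c alone was passed by 819 (14.2%), and the limit over SCNT-8c alone by 550 (9.57%). The 288 were therefore 35.2% of the lncRNAs that were more than 4-fold above IVF-2c and 52.4% of those that were more than 4-fold above SCNT-8c. The other 531 lncRNAs above the IVF-2c limit were also higher in SCNT-8c than in IVF-2c without exception, which the failed limit over SCNT-8c makes certain, with a median log2 ratio of 2.37.

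**Figure D1:**
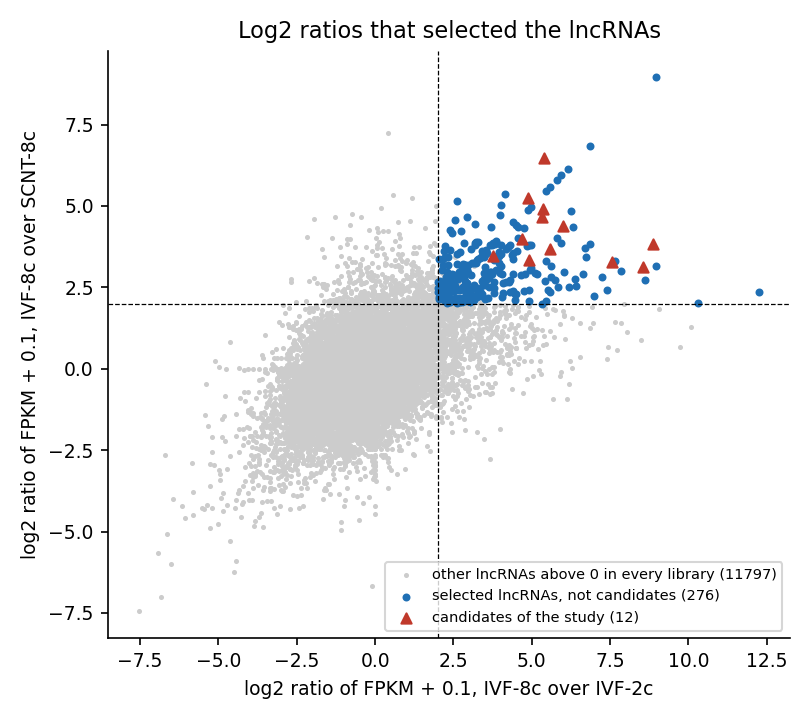
Log2 ratios of FPKM + 0.1 of IVF-8c over IVF-2c (horizontal) and over SCNT-8c (vertical) for the 12085 lncRNAs above 0 in every library, with dashed lines at the limit of 2. The selected lncRNAs fill the upper right corner by construction, and the 12 candidate lncRNAs of the study (triangles) lie inside it.

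Most of the selected lncRNAs were low even where they peaked. In IVF-8c they ranged from 1.001 to 485 FPKM with a median of 3.07, and the middle 50% lay between 1.82 and 7.88. The median was 0.175 FPKM in IVF-2c and 0.280 in SCNT-8c. The median in IVF-8c was 2.67 FPKM among all 5748 lncRNAs above 0 in every library and at 1 FPKM or more there. Of the 288, 54 reached 10 FPKM in IVF-8c. The rule was met by 5.58% of the 771 lncRNAs above 0 in every library at 10 to 50 FPKM there. At 50 FPKM or more it was met by 5.29% of 208, so both shares were near the 5.01% over all 5748. Together the 288 summed to 3366 FPKM in IVF-8c, or 2.87% of all lncRNA FPKM of that library. The sum was 126 FPKM (0.0998%) in IVF-2c and 450 FPKM (0.411%) in SCNT-8c. A few lncRNAs carried much of this sum, since the 10 highest held 47.0% of it in IVF-8c. This was not particular to the 288. Of the lncRNAs with a peak in IVF-2c or in SCNT-8c by the same rule, the 10 highest held 45.2% and 60.0% in their peak library.

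**Figure D2:**
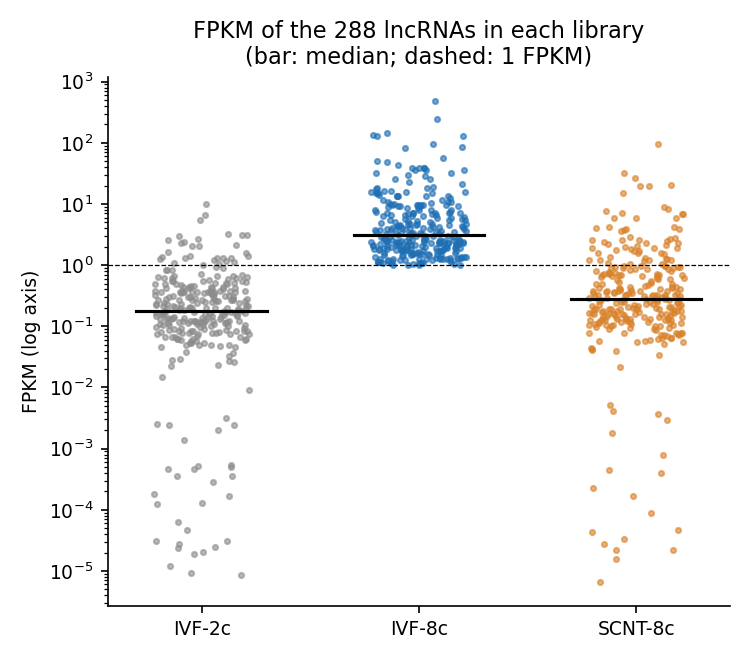
FPKM of the 288 lncRNAs in each library on a log axis, 1 point per lncRNA, with the median as a bar and the limit of 1 FPKM as a dashed line. The median was 3.07 in IVF-8c, 0.175 in IVF-2c and 0.280 in SCNT-8c, and a separate tail of points lies under 0.01 FPKM in IVF-2c and SCNT-8c.

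TCONS_00178965 was the highest of the selected lncRNAs in IVF-8c, with 485 FPKM there, 2.04e-05 in IVF-2c and 94.5 in SCNT-8c. Its value in SCNT-8c was also the highest of the 288 in that library, so it was far above the 2-cell level in cloned embryos as well. TCONS_00312279 followed with 242 FPKM in IVF-8c versus 0.380 in IVF-2c and 26.8 in SCNT-8c. TCONS_00122828 was at 147 FPKM in IVF-8c, compared with 2.55 in IVF-2c and with 9.01 in SCNT-8c. In contrast to the first of these lncRNAs, it was already above 1 FPKM at the 2-cell stage.

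The fourth in rank was TCONS_00343720, the lncRNA3720 that the study followed further, with 133 FPKM in IVF-8c versus 0.257 in IVF-2c and 15.2 in SCNT-8c. TCONS_00444269 was close to it at 131 FPKM in IVF-8c, compared with 2.36 in IVF-2c and with 19.6 in SCNT-8c. TCONS_00599003 was at 127 FPKM in IVF-8c, 31.6 in SCNT-8c and 4.58e-04 in IVF-2c. Its log2 ratio over SCNT-8c was 2.01, among the nearest to the limit of all selected lncRNAs. The remaining 6 of the 12 highest, namely TCONS_00312278, TCONS_00115490, TCONS_00261366, TCONS_00475062, TCONS_00013819 and TCONS_00339133, lay between 48.5 and 96.4 FPKM in IVF-8c. Among the 12 highest, TCONS_00261366 had the highest IVF-2c level with 9.88 FPKM, followed by TCONS_00339133 with 6.66.

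The ratio over IVF-2c was the larger one in 167 of the 288 and the ratio over SCNT-8c in the rest. The median log2 ratio was 3.39 over IVF-2c and 2.86 over SCNT-8c, values that the limits of the rule bound from below. A log2 ratio above 4 was reached by 94 lncRNAs over IVF-2c, by 33 over SCNT-8c and by 24 over both. These ratios depend on the 0.1 FPKM added to each value, and with 1 FPKM added the medians were 1.65 and 1.62. Of the lncRNAs at 10 FPKM or more in IVF-8c, TCONS_00013819 had the largest ratio over SCNT-8c. Its values were 51.1 FPKM in IVF-8c versus 0.00317 in IVF-2c and 0.00374 in SCNT-8c, which gave log2 ratios of 8.96 and 8.95. TCONS_00032099 came next with 11.5 FPKM in IVF-8c, compared with 3.54e-04 in IVF-2c and with 2.74e-05 in SCNT-8c. The candidate TCONS_00135926 was at 26.02 FPKM in IVF-8c versus 0.524 in IVF-2c and 0.193 in SCNT-8c, so that it was lower in SCNT-8c than at the 2-cell stage.

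At the limits the selected lncRNAs had close neighbours that were left out. TCONS_00093144 was just inside the limit of 1 FPKM with 1.001 FPKM in IVF-8c, and TCONS_00218623 just outside with 0.986. In all, 51 lncRNAs above 0 in every library met both ratio limits but were below 1 FPKM. Those listed at 0 in a library are not in this count. TCONS_00394204 had a log2 ratio over IVF-2c of 2.00 and was kept, while TCONS_00007932 with 1.93 was not. Over SCNT-8c, TCONS_00491658 was kept at 2.00 and TCONS_00084752 was left out at 1.99. The latter was at 674 FPKM in IVF-8c, compared with 2.66 in IVF-2c and with 170 in SCNT-8c, which is above the highest of the selected lncRNAs in IVF-8c.

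The levels in SCNT-8c and in IVF-2c were both used by the rule, which keeps only lncRNAs that are low in each of them. Their order among the selected lncRNAs is therefore a description, and the shares over all 5748 lncRNAs given beside it differ in part by the selection. The level in SCNT-8c was above that in IVF-2c in 167 of the 288 (58.0%), against 41.9% of all 5748 lncRNAs of the comparison. The share depended on the scaling. With median-ratio scaling of the libraries over mRNAs, the same 288 lncRNAs gave 76.7% and the 5748 gave 53.1%. This scaling shifts a log2 ratio of SCNT-8c over IVF-2c by 0.34 without the added 0.1 FPKM, and by less with it. The median log2 ratio of SCNT-8c over IVF-2c was 0.24 in the 288 and -0.23 in the 5748.

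On the deposited values, the log2 ratio lay within 1 of equality in 193 of the 288 (67.0%). With medians of 0.175 and 0.280 FPKM in these libraries, the 0.1 FPKM added to each value draws such ratios toward 0. The ratio was above 2 in 40 (13.9%), against 7.67% of the 5748, and under -2 in 2 (0.694%), against 7.25%. At a low peak the rule leaves little room for a large ratio of either sign, since both levels must stay under about the IVF-8c level divided by 4. The 40 lncRNAs that were more than 4-fold above IVF-2c in SCNT-8c by this ratio of FPKM + 0.1 had a median of 14.4 FPKM in IVF-8c. It was 2.54 FPKM for the 246 within 4-fold, and 26 of the 40 reached 10 FPKM in IVF-8c.

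The same values can be given as the part of the rise from IVF-2c to IVF-8c that was present in SCNT-8c. This share was 2.03% in the median, with the middle 50% between -2.21% and 9.32%. It was below 0 in 121 lncRNAs, from 0 to 10% in 104 and above 10% in 63, and its maximum of 24.8% lies near the bound set by the rule. The highest share belonged to TCONS_00599003. In the 819 lncRNAs that passed the limit over IVF-2c alone, which hold the 288, the median was 27.3%, a higher value by construction. With the level in IVF-8c the median share of the selected lncRNAs went from -0.385% at 1 to 2 FPKM to 4.24% at 5 to 10 FPKM and 12.1% at 50 FPKM or more. All 11 lncRNAs of that highest class were above their IVF-2c level in SCNT-8c, and 8 of them by more than 4-fold. In TCONS_00013819 both levels were near 0, with 0.00317 FPKM in IVF-2c and 0.00374 in SCNT-8c, so their order carries little weight.

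**Figure D3:**
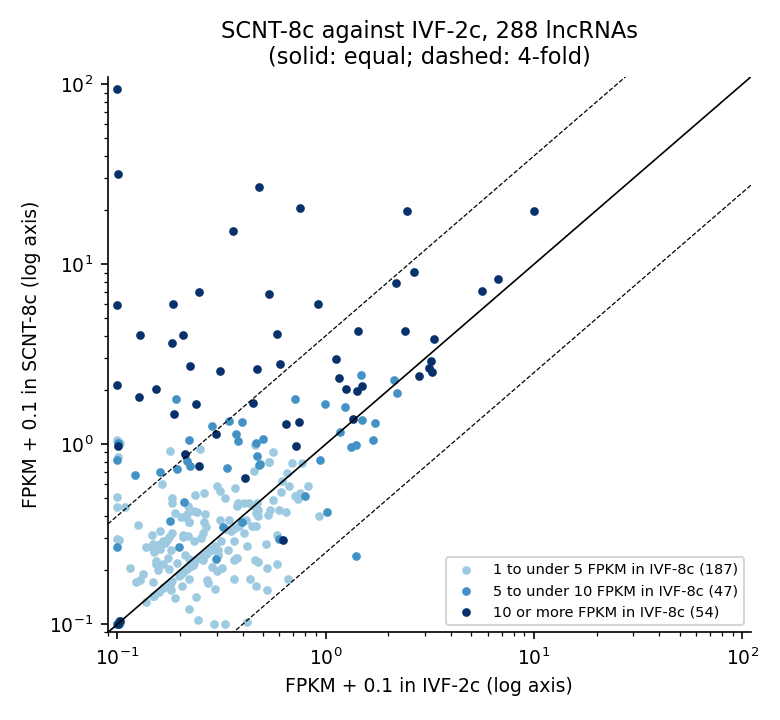
FPKM + 0.1 in SCNT-8c (vertical) against IVF-2c (horizontal) on log axes for the 288 lncRNAs, shaded by their IVF-8c level, with equality as a solid line and 4-fold differences as dashed lines. Of the 40 points above the upper dashed line, 26 reached 10 FPKM or more in IVF-8c, and 2 points lie below the lower one.

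After TCONS_00178965 and TCONS_00599003, the largest ratio of SCNT-8c over IVF-2c was that of TCONS_00135927, with 39.3 FPKM in IVF-8c versus 1.65e-04 in IVF-2c and 5.83 in SCNT-8c. TCONS_00312279 and lncRNA3720 followed, with log2 ratios of 5.81 and 5.42. At the other end, TCONS_00219728 was at 8.47 FPKM in IVF-8c, compared with 1.30 in IVF-2c and with 0.140 in SCNT-8c. TCONS_00022068 was at 2.33 FPKM in IVF-8c, 0.318 in IVF-2c and 0.00298 in SCNT-8c. These were the 2 lncRNAs more than 4-fold lower in SCNT-8c than in IVF-2c, and TCONS_00307540, TCONS_00193451 and TCONS_00573658 came after them with log2 ratios between -1.88 and -1.71.

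The same rule was applied with each of the other libraries as the peak. With IVF-2c as the peak it was met by 381 lncRNAs, 5.8% of the 6564 above 0 in every library and at 1 FPKM or more in IVF-2c. With SCNT-8c as the peak it was met by 100, or 1.67% of 5973. A peak in IVF-8c was thus about as frequent as one in IVF-2c and more frequent than one in SCNT-8c, although with 1 library each the spread of such counts between embryo pools is not known. By level in the peak library, the share with a peak in IVF-8c was 3.96% at 1 to 2 FPKM and between 5.29% and 5.81% in the classes above. For SCNT-8c it was 2.04% at 1 to 2 FPKM and 0.893% at 50 FPKM or more. The order of IVF-2c and IVF-8c depended on scaling, since the scaling over mRNAs turned the counts of peaks to 340 for IVF-8c, against 196 for IVF-2c and 137 for SCNT-8c, and all 288 lncRNAs were among the 340.

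**Figure D4:**
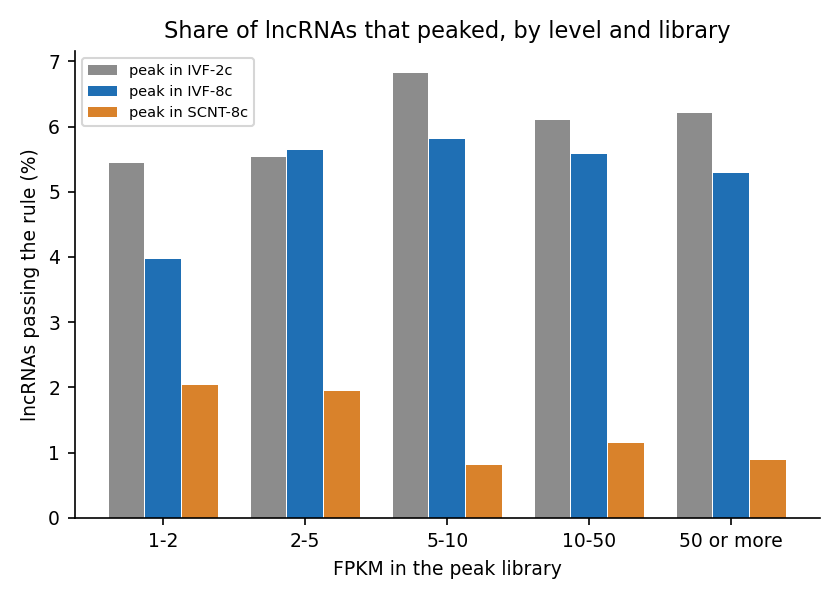
Percent of lncRNAs above 0 in every library that met the rule with IVF-2c, IVF-8c or SCNT-8c as the peak, by class of FPKM in the peak library. The IVF-8c bars lie between 3.96% and 5.81%, and the SCNT-8c bars between 0.817% and 2.04%.

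Some of the selected lncRNAs had values above 0 but near it. Under 0.01 FPKM lay 31 in IVF-2c, 19 in SCNT-8c, 15 in both and 35 in at least 1 of these libraries. The 35 were 12.2% of the 288, and 2% of the 5748 were as near to 0 in IVF-2c or SCNT-8c, a difference that the rule itself favours because it selects for low values in these libraries. The lncRNA nearest to the limit of 1 FPKM, TCONS_00093144, was an example, with 1.001 FPKM in IVF-8c versus 8.59e-06 in IVF-2c and 6.68e-06 in SCNT-8c. Such values are estimates of the transcript model, which shares fragments out between overlapping transcripts, and can stand for much less than 1 fragment. A value above 0 does not show here that a whole fragment was seen.

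Nearly all of these lncRNAs had a listed lncRNA with the next or the previous number. An unbroken series of consecutive numbers held 2 or more listed lncRNAs for 193 of the 288 (67.0%), against 70.9% of the 5748, and for 33 of the 35 near 0. Whether the lncRNAs of a series are isoforms of 1 gene is not given in the files. The values within a series did not always move together. TCONS_00013819, with its 51.1 FPKM in IVF-8c, was followed by TCONS_00013820, which was at 11.6 FPKM in IVF-2c and listed at 0 in IVF-8c and SCNT-8c. In the series of 8 that holds the candidate TCONS_00574621, the candidate was at 7.91 FPKM in IVF-8c and at 0.0972 and 0.170 in IVF-2c and SCNT-8c, while TCONS_00574625 was at 4.79 in IVF-8c and at 22.5 and 7.79 in the others.

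The 288 were therefore checked again on values summed over each series, an alternative chosen after seeing the data. Series that would pass only on their sum were not sought, and 95 of the 288 were alone in their series, so that their values stayed as they were. Both ratio limits were still met by 218 (75.7%). Of the 193 in series of 2 or more, 123 did so (63.7%), while the limit was missed over IVF-2c alone by 15, over SCNT-8c alone by 31 and over both by 24. Of the 35 lncRNAs near 0, 20 met the limits when summed. For the lncRNAs with a peak in IVF-2c the sums met the limits in 129 of 285 (45.3%), and for those with a peak in SCNT-8c in 33 of 68 (48.5%), so that with the single ones 225 of 381 and 65 of 100 were left. TCONS_00599003 was among those lost, since TCONS_00599001 of its series was at 73.2 FPKM in IVF-8c, compared with 16.8 in IVF-2c and with 64.4 in SCNT-8c.

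Transcripts that were not selected but lay near the selected ones in number were often also highest in IVF-8c. In the unbroken series, 279 of 394 pairs (70.8%) of a selected lncRNA with one that was not selected had the latter highest in IVF-8c. Around the other lncRNAs of the 5748 this held for 26.8% of 10537 pairs, and 37.4% of all 36240 listed lncRNAs were highest in IVF-8c. The 394 pairs held 376 distinct lncRNAs that were not selected. Of these, 258 were listed at 0 in IVF-2c or SCNT-8c, which the rule does not allow. Zeros were also common over all 36240 listed lncRNAs, with 15543 in IVF-2c, 13059 in SCNT-8c and 10785 in IVF-8c. Beyond the series, the nearest listed lncRNA that was not selected was highest in IVF-8c in 69.2% of 273 cases at 2 to 5 numbers, 64.9% of 208 at 6 to 20 and 64.3% of 56 at 21 to 100. Around the other lncRNAs these shares were 32.3%, 32.0% and 33.8%. At 101 numbers or more there were only 3 cases around the selected lncRNAs, with 1 of them highest in IVF-8c, and 23 of 54 (42.6%) around the others. With the scaling over mRNAs the shares within a series were 72.8% and 31.3%. The files give no positions, so how near such lncRNAs lie to each other in the genome, and whether they share fragments, was not analysed here.

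**Figure D5:**
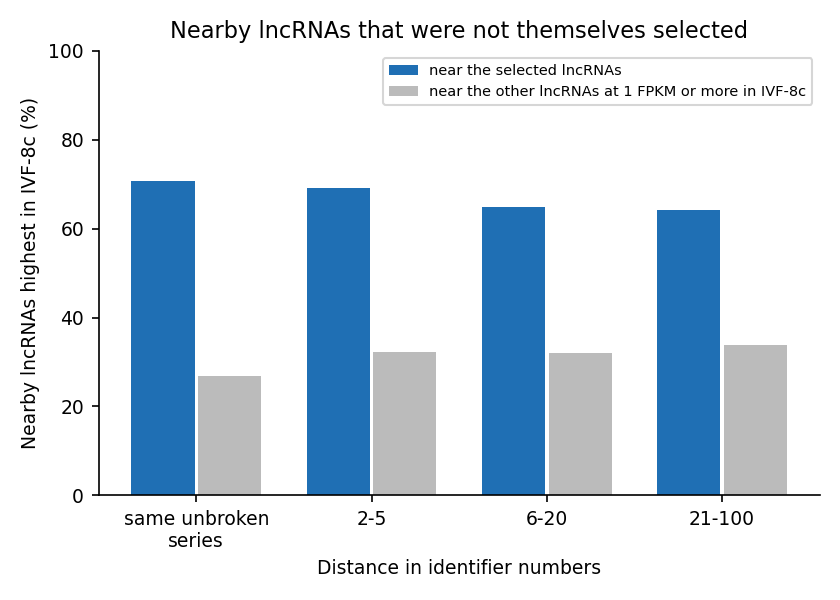
Percent of nearby lncRNAs, none of them selected, that were highest in IVF-8c, by distance in identifier numbers, around the selected lncRNAs and around the other lncRNAs at 1 FPKM or more in IVF-8c. The bars lie between 64.3% and 70.8% around the selected lncRNAs and between 26.8% and 33.8% around the others. Of all 36240 listed lncRNAs, 37.4% were highest in IVF-8c. The class of 101 numbers or more, with 3 cases around the selected lncRNAs, is not drawn.

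Selected lncRNAs themselves lay within 5 numbers of another selected one in 33 cases (11.5%), against 18.1% of the lncRNAs with a peak in IVF-2c. TCONS_00312278 and TCONS_00312279 formed the highest such pair, and the first was at 96.4 FPKM in IVF-8c versus 0.657 in IVF-2c and 20.4 in SCNT-8c. TCONS_00562641 and the candidate TCONS_00562642 were near one another in all libraries, with 29.2 and 32.0 FPKM in IVF-8c, 1.39 and 1.15 in IVF-2c, and 2.00 and 1.93 in SCNT-8c. TCONS_00157404 and TCONS_00157405 had the same value in each library, namely 2.13 FPKM in IVF-8c, 0.203 in IVF-2c and 0.144 in SCNT-8c, and count as 1 measurement. Other pairs were unequal. TCONS_00432643 was at 4.26 FPKM in IVF-8c, compared with 3.14e-05 in IVF-2c and with 2.18e-05 in SCNT-8c, and its partner TCONS_00432642 was at 2.43 FPKM in IVF-8c, 0.213 in IVF-2c and 0.452 in SCNT-8c.

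All 12 candidate lncRNAs of the study were among the 288. They had been chosen on these same libraries, so their ranks describe that choice. Their median was 21.2 FPKM in IVF-8c, against 2.85 FPKM in the other 276, and 11 of the 12 were among the 72 highest. Over IVF-2c their median log2 ratio was 5.37 against 3.28, and over SCNT-8c 3.91 against 2.81. Another 33 of the 288 were at or above the lowest candidate in IVF-8c level and in both ratios. The study also selected on a corrected q value, which the rule here does not use, and it checked some candidates by quantitative PCR. The lowest in level was TCONS_00285940, with 4.13 FPKM in IVF-8c versus 0.210 in IVF-2c and 0.280 in SCNT-8c, at rank 117.

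The candidates differed in their level in cloned embryos relative to the 2-cell stage. TCONS_00343720, TCONS_00115490 and TCONS_00179701 were more than 4-fold above IVF-2c in SCNT-8c, with 15.2, 5.88 and 3.94 FPKM there and 133, 85.6 and 38.9 in IVF-8c. TCONS_00135926 and TCONS_00393472 were the candidates that were lower in SCNT-8c than in IVF-2c. The latter was at 8.57 FPKM in IVF-8c, compared with 0.196 in IVF-2c and with 0.131 in SCNT-8c. For TCONS_00056732, TCONS_00461730, TCONS_00574621, TCONS_00562642, TCONS_00157143, TCONS_00474517 and TCONS_00285940 the log2 ratio of SCNT-8c over IVF-2c lay between 0.29 and 1.90. Without the added 0.1 FPKM, TCONS_00157143 and TCONS_00474517 were also more than 4-fold above IVF-2c. Their values were 0.0938 and 0.146 FPKM in IVF-2c and 0.625 and 0.655 in SCNT-8c.

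In 8 of the 12 the candidate had listed neighbours in an unbroken series, and 11 of the 12 met the limits on summed values. Next to lncRNA3720, TCONS_00343721 was listed at 0 in IVF-2c and was at 62.8 FPKM in IVF-8c and 2.16 in SCNT-8c. The value of 0 kept it out of the selection. Summed, these transcripts gave 195 FPKM in IVF-8c, 0.257 in IVF-2c, 17.4 in SCNT-8c and a log2 ratio over SCNT-8c of 3.48, against 3.11 for lncRNA3720 alone. Beside TCONS_00115490, TCONS_00115489 was also listed at 0 in IVF-2c, with 46.8 FPKM in IVF-8c and 2.66 in SCNT-8c. The ratio of TCONS_00135926 changed most in the other direction. Its series also holds TCONS_00135927 and TCONS_00135928, the latter listed at 0 in IVF-2c, at 30.2 FPKM in SCNT-8c and at 154 in IVF-8c, and the log2 ratio over SCNT-8c went from 6.48 alone to 2.62 summed. TCONS_00574621 was the candidate that missed the limits when summed, with log2 ratios of 0.50 over IVF-2c and 1.87 over SCNT-8c.

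The rule was also applied to the mRNA transcripts of the same libraries. It was met by 145 of the 11629 mRNAs above 0 in every library and at 1 FPKM or more in IVF-8c (1.25%), against 5.01% of the lncRNAs. The limit over IVF-2c alone was passed by 1238 mRNAs (10.6%), and the limit over SCNT-8c alone by 266 (2.29%). Of the mRNAs above the IVF-2c limit 11.7% also passed that over SCNT-8c, against 35.2% of the lncRNAs. The level in SCNT-8c was above IVF-2c in 95 of the 145 (65.5%). The lncRNA and mRNA tables differ in how their transcripts were defined, so the part of the assembly in this difference was not tested.

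A gene name from RefSeq was found for 91 of the 145, and 32 of these have only a locus number. GUCA2A, which encodes the gut peptide guanylin, was at 35.1 FPKM in IVF-8c versus 2.04 in IVF-2c and 2.66 in SCNT-8c. In the order IVF-2c, then IVF-8c, then SCNT-8c, kept for the genes that follow, SPIC, an ETS family transcription factor, was at 2.81, 33.6 and 5.84 FPKM. HORMAD1, a protein of the meiotic chromosome axis, was at 0.714, 18.4 and 2.00 FPKM. TFF3, a trefoil peptide of mucous epithelia, was at 0.282, 19.1 and 2.40 FPKM. PLVAP, a protein of endothelial diaphragms, also met the rule. The other 10 of the 15 highest named mRNAs have a locus number only, led by LOC102184572 with 0.107, 96.3 and 0.568 FPKM.

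Several genes of activation and early lineage were higher in both 8-cell libraries than in IVF-2c. Of the list of 25 such genes only 8 were matched by name, under the 80% needed for a summary, and this limit was also missed by the lists of transcription machinery (15 of 26), nuclear RNA decay (14 of 21) and reprogramming chromatin enzymes (8 of 25), so these genes are given by value only. ARGFX, a homeobox factor of activation in several mammals, was at 843 FPKM in IVF-8c, compared with 0.106 in IVF-2c and with 628 in SCNT-8c. KLF17, a zinc finger factor of early embryos, was listed at 0 in IVF-2c and was at 87.6 FPKM in IVF-8c and 46.2 in SCNT-8c. The rule, which asks for values above 0, could not be met by it. EIF1AX, a translation initiation factor used as a marker of activation, was at 47.0, 231 and 96.9 FPKM. In ARGFX, KLF17 and EIF1AX the SCNT-8c level was below that of IVF-8c but within 4-fold of it. The 288 lncRNAs, in contrast, had been selected for a larger difference. SOX15 and TM4SF1 had the same order as these genes, but not every matched gene did. HSPA8 was at 406 FPKM in IVF-8c and 414 in SCNT-8c. SOX2 was highest in cloned embryos with 1.90 FPKM, against 0.644 in IVF-8c and 0.676 at the 2-cell stage. NANOG was low, with 0.138 FPKM in IVF-8c and 0.0934 in SCNT-8c.

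At 1.25% of all mRNAs, the rule would be met by few or no transcripts of lists this short, so their counts show nothing about the genes. The transcript that met it was a low one of POLR2I, a subunit of RNA polymerase II, with 3.73 FPKM in IVF-8c versus 0.185 in IVF-2c and 0.783 in SCNT-8c. The main POLR2I transcript was at 17.0, 176 and 95.9 FPKM. Nuclear RNA decay limits many lncRNAs. EXOSC10, a nuclear ribonuclease of the exosome, was at 14.2 FPKM in IVF-8c, compared with 17.1 in IVF-2c and with 10.2 in SCNT-8c, and RBM7, which directs the exosome to non-coding transcripts, at 62.1, 203 and 127 FPKM. The chromatin enzymes differed in order. KDM4D, a histone H3 lysine demethylase, was listed at 0 in IVF-2c and was at 2.42 FPKM in IVF-8c and 0.577 in SCNT-8c. HDAC3, a histone deacetylase, was instead lowest in IVF-8c, with 25.8 FPKM there, 105 in IVF-2c and 50.6 in SCNT-8c. DNMT3A and EHMT2 were also lowest in IVF-8c.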

How the data were processed

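RNA-seq of 3 embryo libraries was used, namely the single libraries of IVF-2c, of IVF-8c and of SCNT-8c. Per the labels, cDNA was amplified with a SMART-Seq low-input kit and sequenced in paired ends, and the submitters' processing notes name TopHat2 2.0.12, Bowtie2 2.2.3, Cufflinks 2.1.1 and Cuffdiff. The genome build is not given in the sources used here. The values are FPKM as the authors deposited them, in 1 table of assembled lncRNAs and 1 of mRNAs named by RefSeq accession. Columns that no sample could be given to numbered 0. The fibroblast table was not used here, since it holds none of these lncRNAs.

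The rule and all counts were computed with numpy 2.4.6 and pandas 2.3.3 under Python 3.11.15, with a pseudocount of 0.1 FPKM, and tested on simulated data. Median-ratio scaling divided each library by its median ratio to the mean of the libraries on the log scale, over mRNAs or lncRNAs above 0 in all. Names came from RefSeq genes of the assembly ARS1.2, by accession without version, for 13518 of 30147 mRNAs. Named lncRNAs were the 12 candidates, the 12 highest in IVF-8c, those with the largest and smallest ratios, those nearest to each limit and those within 5 numbers of another, and named mRNAs were the 15 highest and the genes of the lists. Transcripts of the same series of numbers were named beside them after their values were seen. Members and lists were chosen with earlier results of these data known. Alternatives were other pseudocounts, minimums, limits, scalings and windows.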

Additional observations from a re-analysis of the deposited data

How the results depend on the processing

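No paired analysis was possible because each embryo condition has 1 library and no replicate numbers to share. The direction of each peak is fixed by the rule, so the alternatives bear on counts. All 12 candidates met the rule under every alternative but the minimum of 5 FPKM (11), the sum over consecutive numbers (11) and 0.1 FPKM in every library (9). Counts are given in the order IVF-8c peaks, IVF-2c peaks, SCNT-8c peaks, lncRNAs of the IVF-8c peak with SCNT-8c over 4-fold above IVF-2c, and mRNAs, against 288, 381, 100, 40 and 145. With a pseudocount of 1 FPKM they were 85, 72, 14, 12 and 52, with a minimum of 5 FPKM 101, 144, 18, 33 and 64, with a log2 limit of 1 they were 795, 1844, 570, 141 and 593, and with a limit of 3 they were 96, 43, 20, 12 and 49. With at least 0.1 FPKM in every library they were 180, 299, 66, 17 and 90. A pseudocount of 0.01 FPKM moved the SCNT-8c peaks to 157 and the 4-fold count to 67, and no minimum moved the SCNT-8c peaks to 151. Scaling over mRNAs moved the IVF-2c peaks to 196, and scaling over lncRNAs to 189, with 62 for the 4-fold count and 220 mRNAs. The share of IVF-8c peaks with SCNT-8c above IVF-2c was 58.0%, and 76.5% with the pseudocount of 1, 78.2% with the minimum of 5, 71.2% and 70.4% with the scalings over mRNAs and lncRNAs. The median share of the rise present in SCNT-8c went from 2.03% to 6.23% at 5 FPKM or more. Under a near-zero limit of 0.1 FPKM lay 108 lncRNAs. With versions kept, 12 instead of 77 list genes were matched. Sums over consecutive numbers, checked on lncRNAs already selected, left 218 IVF-8c, 225 IVF-2c and 65 SCNT-8c peaks, of which the IVF-2c and SCNT-8c counts moved by over 1.5 times. The other 44 of 83 alternatives moved no count by over 1.5 times and no share or median beyond its 95% interval. That interval treats the lncRNAs of single libraries as independent of each other, and it does not measure the spread between embryo pools. The cause of the moves was not tested. Depth is unknown and each condition is 1 library, so the spread between embryo pools is unknown for every value.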

Other observations

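A stretch of neighbouring genes stood out among the mRNAs that met the same rule, and it was chosen after its values were seen. In the RefSeq gene order of ARS1.2, 10 of the named genes lay in 1 stretch of 48 consecutive genes when gaps of up to 15 genes were allowed, and the next largest stretch held 3. The genes are LOC102185323, LOC102185049, LOC102184572, LOC102182458, LOC102183280, LOC106501778, LOC102178584, LOC102178870, LOC102180587 and LOC102180307, and BTN1A1, ABT1, ZNF322, PRSS16 and ZNF184 lie between them. In the human genome these last genes lie among the largest cluster of histone genes. The table used here gives only locus numbers for the goat genes, so whether they encode histones was not analysed here. LOC102178584 was at 87.0 FPKM in IVF-8c versus 0.543 in IVF-2c and 1.43 in SCNT-8c. LOC102185323 was at 11.3 FPKM in IVF-8c, 0.304 in IVF-2c and 0.150 in SCNT-8c. LOC102182181, which missed the limit over SCNT-8c, was at 390 FPKM in IVF-8c, 145 in SCNT-8c and 0.537 in IVF-2c. The stretch was found through the genes that met the rule, so their peak in IVF-8c is no result. Of its other 14 transcripts at 1 FPKM or more in IVF-8c, 11 were highest in that library, as were 29.8% of all mRNAs at that level. ABT1, at 22.01 FPKM in IVF-8c and 23.0 in SCNT-8c, was not among them.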
